A study of Mus musculus with 6 samples.

Results

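The Serpina protease inhibitors are 10 of the 52459 genes in the liver count table, chosen by symbol: Serpina1a, Serpina1b, Serpina1c, Serpina1d, Serpina1e, Serpina3k, Serpina3m, Serpina3n, Serpina6 and Serpina7. All 10 passed the filter on low counts. Whole-liver RNA was sequenced from 6 male C57BL6J mice of the Alb-Cre/Cas9 F1 generation, 8 months old. In the sgCtrl group (mice 5.1, 7.1 and 7.2, n = 3) the guide was a control, and in the sgPrdx2 group (mice 1.1, 1.3 and 3.2, n = 3) it targeted Prdx2, a peroxiredoxin that removes hydrogen peroxide. Guides were delivered by an intravenous AAV8 vector at 4 to 5 weeks of age. Diethylnitrosamine (DEN), which causes liver tumors, was injected at 100 mg/kg in both groups 3 weeks after the vector, and from 1 week after DEN both were fed CDA-HFD, a high-fat diet without choline, for 6 months, so no untreated liver enters the comparison. Cre is driven by the albumin promoter and Cas9 is therefore meant for hepatocytes, whereas the RNA comes from every cell of the liver.

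Serpins are plasma and cell proteins with an exposed loop, the reactive centre loop, that a protease takes for a substrate. Cleavage of the loop folds it into the body of the serpin and traps the protease, so the bases that code for the loop set which protease is caught. Clade A holds many of the serpins that the liver secretes. Serpina1a to Serpina1e are the mouse copies of alpha-1-antitrypsin, the plasma inhibitor of neutrophil elastase, which is a single gene in humans. Serpina3k, Serpina3m and Serpina3n belong to the mouse expansion of alpha-1-antichymotrypsin. Serpina6 (corticosteroid-binding globulin) and Serpina7 (thyroxine-binding globulin) have the same fold but carry hormones and inhibit no protease.

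In the GRCm38 annotation, 9 of the 10 genes lie in the serpin cluster of chromosome 12. Serpina6 is at chr12:103646630-103657212, the 5 Serpina1 copies span chr12:103728156-103958975 (all on the minus strand), and Serpina3k, Serpina3m and Serpina3n span chr12:104338486-104414329 on the plus strand. Serpina7 is at chrX:139079257-139085236 on the minus strand. The coding sequences of the 5 Serpina1 copies were 96.29% to 98.47% identical in pairs. Serpina3k was 91.75% identical to Serpina3m and 82.85% to Serpina3n, and Serpina6 was 48.49% identical to Serpina7.

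The coding differences among the Serpina1 copies are densest in a stretch that takes in part of the loop. Of 1239 aligned coding columns, 86 (6.941%) differ among the 5 copies, and the most variable stretch of 60 bases holds 18 of them (30% of its bases). That stretch lies in the last coding exon and begins 14 bases after the first base of the in-frame codons of the loop's conserved hinge. It is shown for each copy because these near-identical genes differ most densely there, with the bases that vary among the 5 in capitals. It is at chr12:103853757-103853816 in Serpina1a, chr12:103728324-103728383 in Serpina1b, chr12:103895094-103895153 in Serpina1c, chr12:103763762-103763821 in Serpina1d and chr12:103947100-103947159 in Serpina1e.
Serpina1a: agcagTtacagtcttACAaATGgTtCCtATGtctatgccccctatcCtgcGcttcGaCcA
Serpina1b: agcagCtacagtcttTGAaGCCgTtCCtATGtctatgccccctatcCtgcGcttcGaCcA
Serpina1c: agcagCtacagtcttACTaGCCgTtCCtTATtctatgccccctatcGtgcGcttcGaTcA
Serpina1d: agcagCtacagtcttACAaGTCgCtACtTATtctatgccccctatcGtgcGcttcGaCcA
Serpina1e: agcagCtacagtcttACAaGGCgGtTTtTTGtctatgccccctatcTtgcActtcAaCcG

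Much of the rest of these transcripts does not tell the copies apart. Of the 50-base stretches in the transcript, 79.27% in Serpina1c, 67.43% in Serpina1a, 50.93% in Serpina1d, 35.79% in Serpina1b and 35.58% in Serpina1e also occur in another gene, mostly another Serpina1 copy. The share was 19.07% in Serpina3m, 14.04% in Serpina3k, 6.898% in Serpina3n and 0 in Serpina6 and Serpina7. The annotated span of Serpina1b also contains Serpina1d, and that of Serpina3m begins at the same base as Serpina3k. How such reads were assigned is not given in the sources used here, so values of single Serpina1 copies are uncertain. Their sum is not changed by a read that moves from one of the 5 to another.

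The promoters of the 5 copies are alike as well. Sequences of 250 bases before to 50 bases after the start site were matched in RefSeq (GRCm38.p6) for 7 of the 10 members, and the 5 Serpina1 promoters were 91.7% to 98.39% identical in pairs. A run of 59 bases is the same in all 5, and is shown in capitals within 131 bases of each promoter, all on the minus strand. The first base of the run is at -60, -65, -66, -55 and -117 from the start site in Serpina1a, Serpina1b, Serpina1c, Serpina1d and Serpina1e. The printed stretches are at chr12:103863585-103863715 in Serpina1a, chr12:103738160-103738290 in Serpina1b, chr12:103904922-103905052 in Serpina1c, chr12:103773594-103773724 in Serpina1d and chr12:103956920-103957050 in Serpina1e.
Serpina1a: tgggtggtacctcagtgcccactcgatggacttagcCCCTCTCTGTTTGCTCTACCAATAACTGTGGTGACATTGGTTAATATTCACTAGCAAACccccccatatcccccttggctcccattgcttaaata
Serpina1b: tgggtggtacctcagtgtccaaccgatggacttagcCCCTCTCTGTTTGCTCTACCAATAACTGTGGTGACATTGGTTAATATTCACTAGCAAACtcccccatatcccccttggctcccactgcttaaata
Serpina1c: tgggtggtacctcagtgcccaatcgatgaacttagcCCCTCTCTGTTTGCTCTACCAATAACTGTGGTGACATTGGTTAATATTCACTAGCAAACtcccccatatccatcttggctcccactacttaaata
Serpina1d: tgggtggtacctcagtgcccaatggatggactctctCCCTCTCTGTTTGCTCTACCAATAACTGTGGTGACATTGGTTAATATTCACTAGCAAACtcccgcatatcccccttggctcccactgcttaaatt
Serpina1e: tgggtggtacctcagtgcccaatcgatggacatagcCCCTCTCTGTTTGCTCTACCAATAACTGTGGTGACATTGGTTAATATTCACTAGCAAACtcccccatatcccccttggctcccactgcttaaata

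The shared run holds GTTAAT, a core motif of the hepatocyte factor HNF1, once in each copy. Searched on both strands, these letters occur once in the promoter of each Serpina1 copy and of Serpina7, not in that of Serpina3n, and in 7.099% of all 32851 promoters. TTGCNNAA, a C/EBP motif, occurs once in Serpina1a, Serpina1b, Serpina1d, Serpina1e and Serpina7, not in Serpina1c or Serpina3n, and in 10.8% of all promoters. TTCNNNGAA, a STAT motif, occurs in none of the 7 and in 8.298% of all promoters. No matches of the 3 motifs overlap in these 7 promoters. A match is a description of the letters only.

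Total counts per liver were 37462102 to 56865293, and the smallest count of any member in any liver was 1606. Values below are normalized counts (CPM, counts per 1000000 counts of the library), scaled by edgeR's TMM method over all genes, whose factors were between 1.121 and 1.169 for sgCtrl and between 0.8052 and 0.9515 for sgPrdx2. Of 17032 genes tested with edgeR's quasi-likelihood test, 567 had a Benjamini-Hochberg adjusted p under 0.05, which is what "called" means here. An unadjusted p under 0.05, counted for several gene lists below, was reached by 4241 of the 17032 genes. Prdx2 RNA was at 119 ± 11.6 CPM in sgCtrl and 120 ± 26.1 CPM in sgPrdx2 livers (SD, n = 3 each), and small edits by Cas9 need not lower it, so the labels could not be checked from it. The livers expressed hepatocyte markers throughout, with albumin (Alb) at 58815 to 62569 CPM in sgCtrl and 97610 to 128017 CPM in sgPrdx2 livers.

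Of the 10 members, all but Serpina7 were higher in every sgPrdx2 than in every sgCtrl liver. Together they took 0.4992%, 0.7012% and 0.6029% of all counts in sgCtrl livers 5.1, 7.1 and 7.2 and 0.9959%, 0.9742% and 1.243% in sgPrdx2 livers 1.1, 1.3 and 3.2, with no overlap between the groups (exact permutation, two-sided, p = 0.1, which is the lowest value possible with 3 livers in each group). Of the 10 members, 5 were called, all 5 of them higher in sgPrdx2 livers: Serpina1a, Serpina1b, Serpina1c, Serpina1d and Serpina3n. Over all genes tested, 1.79% were called higher. The 9 of 10 members that were higher without overlap stand beside 16.7% of all genes tested. The median log2 fold change of the 10 was 1.20, beside -0.02 for all genes tested. By DESeq2, 7 of 10 members were called, also all higher, against 7.63% of genes with an adjusted p there. In bulk RNA, a larger share of hepatocytes and more serpin RNA per hepatocyte cannot be told apart, and 5 of 15 hepatocyte markers, given below, were called higher too.

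**Figure D1:**
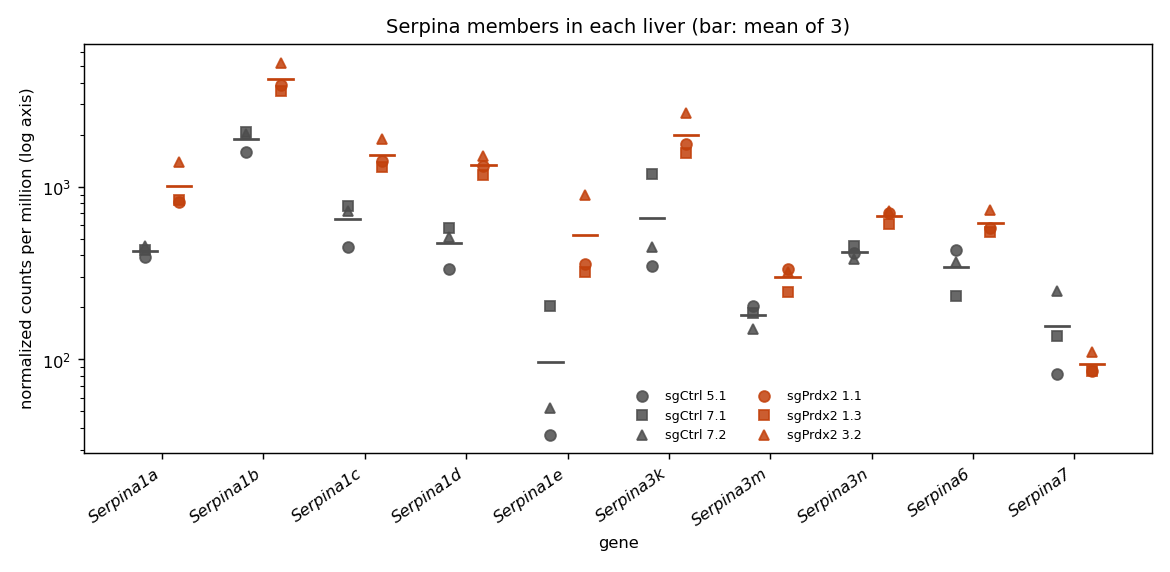
CPM (log axis) of each member in the 6 livers, sgCtrl in grey and sgPrdx2 in orange, one symbol per mouse and a bar at the mean of 3. The sgPrdx2 points lie above the sgCtrl points for every gene except Serpina7, and sgCtrl liver 7.1 stands above the other controls for Serpina1e and Serpina3k.

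Among the alpha-1-antitrypsin copies, Serpina1b had the highest counts in every liver. It was at 1585, 2080 and 2024 CPM in sgCtrl livers 5.1, 7.1 and 7.2 and at 3898, 3564 and 5230 CPM in sgPrdx2 livers 1.1, 1.3 and 3.2. The groups did not overlap, and Serpina1b rose 2.23-fold (log2 fold change 1.16, SE 0.21, adjusted p = 0.0396 from edgeR).

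Serpina1a, the copy closest to Serpina1c in coding sequence, was at 391, 433 and 455 CPM in sgCtrl livers and at 819, 839 and 1383 CPM in sgPrdx2 livers. The controls were within 1.16-fold of each other, and sgPrdx2 liver 3.2 stood above the other two. Serpina1a rose 2.38-fold (log2 fold change 1.25, SE 0.23, adjusted p = 0.0409 from edgeR).

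Serpina1c was at 447, 770 and 725 CPM in sgCtrl and at 1401, 1297 and 1890 CPM in sgPrdx2 livers, with sgCtrl liver 5.1 the lowest. It rose 2.36-fold (log2 fold change 1.24, SE 0.25, adjusted p = 0.0466 from edgeR).

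Serpina1d had the smallest p of the 10 members. It was at 332, 575 and 514 CPM in sgCtrl and at 1317, 1176 and 1507 CPM in sgPrdx2 livers, and the lowest sgPrdx2 liver was well above the highest control. It rose 2.82-fold (log2 fold change 1.49, SE 0.23, adjusted p = 0.0358 from edgeR).

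Serpina1e was the copy with the widest spread between animals. It was at 36.7, 202.8 and 52.2 CPM in sgCtrl livers 5.1, 7.1 and 7.2 and at 354.7, 320.2 and 891.4 CPM in sgPrdx2 livers 1.1, 1.3 and 3.2. The groups did not overlap, although liver 7.1 was 5.53-fold above the lowest control. The log2 fold change of 2.42 was the largest of the 10 members but had an SE of 0.69 (95% interval 0.82 to 4.03), and it was not called (adjusted p = 0.0911 from edgeR). Without sgCtrl liver 7.1 the log2 fold change was 3.55 and called (adjusted p = 0.0378), and without sgPrdx2 liver 3.2 it was 1.81.

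As a single row, the summed Serpina1a-e counts gave 2791, 4059 and 3770 CPM in sgCtrl and 7791, 7196 and 10903 CPM in sgPrdx2 livers. The sum rose 2.44-fold (log2 fold change 1.29, SE 0.23, 95% interval 0.75 to 1.82, adjusted p = 0.041 from edgeR with the 5 rows replaced by their sum). Relative to albumin, the livers of the groups overlapped. The log2 ratio of the Serpina1a-e sum to Alb counts was -4.11 ± 0.26 in sgCtrl and -3.78 ± 0.24 in sgPrdx2 livers (SD, n = 3 each, two-sided exact permutation p = 0.3, adjusted p = 0.4 over 4 ratios chosen after the values were seen).

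Serpina1b made up 56.8%, 51.2% and 53.7% of the summed counts in sgCtrl livers and 50.03%, 49.53% and 47.97% in sgPrdx2 livers. This was the only one of the 5 shares without overlap between the groups (two-sided exact permutation p = 0.1, the smallest possible, adjusted p = 0.5 over the 5 shares). Serpina1e made up 1.31%, 5.00% and 1.39% in sgCtrl and 4.55%, 4.45% and 8.18% in sgPrdx2 livers, overlapping through sgCtrl liver 7.1 (exact permutation p = 0.3). Serpina1d made up 13.2% ± 1.18 in sgCtrl and 15.7% ± 1.64 in sgPrdx2 livers (SD, n = 3 each, exact permutation p = 0.2). The shares of Serpina1a (12.2% ± 1.68 and 11.6% ± 1.09) and Serpina1c (18.1% ± 1.79 and 17.8% ± 0.39) differed by less than their spread. Shares do not depend on how libraries are scaled, but they do depend on how shared reads were assigned.

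**Figure D2:**
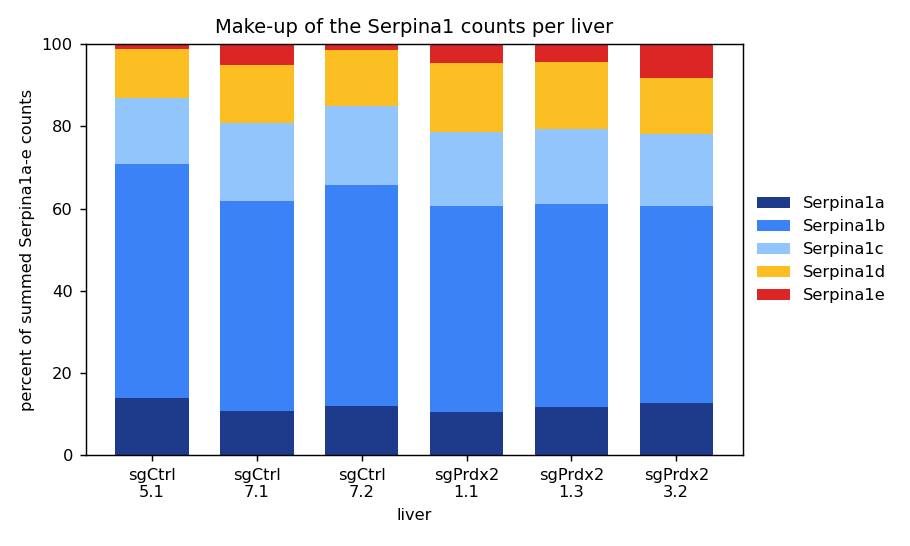
Percent of the summed Serpina1a-e counts taken by each copy, one stacked bar per liver. Serpina1b is the largest part of every bar (47.97% to 56.8%), and the Serpina1e part ranges from 1.31% in sgCtrl liver 5.1 to 8.18% in sgPrdx2 liver 3.2.

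Serpina3k, a plasma serpin also known as contrapsin that inhibits trypsin-like proteases and tissue kallikrein, varied among controls in the way Serpina1e did. It was at 347, 1186 and 445 CPM in sgCtrl livers 5.1, 7.1 and 7.2 and at 1766, 1566 and 2654 CPM in sgPrdx2 livers 1.1, 1.3 and 3.2. Liver 7.1 was the high control again, and the groups did not overlap. The log2 fold change was 1.60 (SE 0.46, 95% interval 0.53 to 2.66) and was not called (adjusted p = 0.092 from edgeR). Without sgCtrl liver 7.1 it was 2.33 and called (adjusted p = 0.0318).

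Serpina3n, the acute phase serpin that inhibits granzyme B, was the steadiest of the members. It was at 414, 455 and 382 CPM in sgCtrl and at 709, 605 and 720 CPM in sgPrdx2 livers, within 1.19-fold in each group. It rose 1.63-fold (log2 fold change 0.70, SE 0.15, adjusted p = 0.0491 from edgeR). Its call was lost with total counts (log2 fold change 0.32, adjusted p = 0.106), with scaling to housekeeping genes (0.32, adjusted p = 0.195) and without any one of the 6 livers (0.64 to 0.80, adjusted p of 0.0577 to 0.179). Serpina3m, its neighbour, was at 205, 185 and 149 CPM in sgCtrl and at 334, 247 and 320.5 CPM in sgPrdx2 livers. Its log2 fold change of 0.74 (SE 0.18, 95% interval 0.32 to 1.16) was not called by edgeR (adjusted p = 0.0653) and was called by DESeq2 (adjusted p = 0.00299). The log2 ratio of Serpina3k to Serpina3n counts was -0.26, 1.38 and 0.22 in sgCtrl and 1.32, 1.37 and 1.88 in sgPrdx2 livers, overlapping through sgCtrl liver 7.1 (two-sided exact permutation p = 0.3, adjusted p = 0.4 over the 4 ratios).

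The 2 hormone carriers had log2 fold changes of opposite sign, neither of them called by edgeR. Serpina6, which carries corticosterone in plasma, was at 432.8, 232.2 and 368.4 CPM in sgCtrl and at 574.9, 544.4 and 730.7 CPM in sgPrdx2 livers. Liver 7.1, the high control for Serpina1e and Serpina3k, was the low control here. The log2 fold change of 0.84 (SE 0.24, 95% interval 0.27 to 1.41) was not called by edgeR (adjusted p = 0.0933) and was called by DESeq2 (adjusted p = 0.0092).

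Serpina7, which carries thyroxine, was the only member with a negative log2 fold change and the only one whose groups overlapped. It was at 82.5, 138 and 248 CPM in sgCtrl livers 5.1, 7.1 and 7.2 and at 86.2, 86.1 and 110.0 CPM in sgPrdx2 livers. The controls spread over 3.01-fold and the sgPrdx2 livers over 1.28-fold. The log2 fold change was -0.73 (SE 0.36, 95% interval -1.55 to 0.09, adjusted p = 0.247 from edgeR), and it was -0.22 without sgCtrl liver 7.2. The log2 ratio of Serpina7 to Serpina6 counts was -2.39, -0.76 and -0.57 in sgCtrl and -2.74, -2.66 and -2.73 in sgPrdx2 livers, without overlap (two-sided exact permutation p = 0.1, the smallest possible, adjusted p = 0.4 over the 4 ratios).

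Levels were compared between genes as CPM per kilobase of exon. In sgCtrl livers the order of the mean levels per kilobase ran from Serpina1b (785 ± 112) through Serpina1c (476 ± 129), Serpina1d (340 ± 90.6), Serpina3k (321 ± 223), Serpina1a (233 ± 17.8), Serpina3n (202 ± 17.7), Serpina6 (196 ± 58.2), Serpina3m (105 ± 16.6) and Serpina7 (63.8 ± 34.5) to Serpina1e (60.2 ± 56.8, SD, n = 3 each). Only 2 of the 9 neighbouring pairs did not overlap between livers, Serpina1b over Serpina1c and Serpina6 over Serpina3m. Compared within each sgCtrl liver, Serpina1c was also above Serpina1d (328, 565 and 533 against 238, 412 and 368). Serpina1a was likewise above Serpina3n (213, 236 and 248 against 201, 220 and 185). In sgPrdx2 livers Serpina1b was again first (1752 ± 365 CPM per kilobase) and Serpina7 was last (38.4 ± 5.62), with Serpina1e at 323 ± 198. Divided by the number of 50-base stretches found in no other gene instead of by exon length, a measure added after seeing the data, Serpina1c ranked first and Serpina1b second in sgCtrl livers, so the order of these 2 copies is not settled by the counts.

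Other Serpina genes of the same cluster had values in both directions. Of 16 in the table, 12 were tested, with 0 called higher and 1 called lower by edgeR, beside 1.54% called lower over all genes. At an unadjusted p under 0.05 there were 8, and DESeq2 called 1 higher (Serpina11) and 3 lower (Serpina3f, Serpina3g and Serpina3i), beside 5.81% called lower by it. On the plus strand between Serpina3c and Serpina3j, the neighbouring Serpina3f, Serpina3g, Serpina3h and Serpina3i were each lower in every sgPrdx2 than in every sgCtrl liver, with a median log2 fold change of -1.04. Over all genes tested, 17.5% were lower without overlap, and these 4 were grouped after their values were seen. Serpina3b, outside this block, was also lower without overlap (log2 fold change -0.83, adjusted p = 0.172 from edgeR) at 6 to 18 counts per liver. That makes 5 of the 12 tested.

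Serpina3i was the called one, at 2.15, 1.96 and 2.80 CPM in sgCtrl and 0.62, 0.96 and 0.92 CPM in sgPrdx2 livers (log2 fold change -1.47, SE 0.27, adjusted p = 0.0409 from edgeR). Serpina3g, an inhibitor of lysosomal cysteine proteases in leukocytes, was at 49.1, 27.5 and 44.0 CPM in sgCtrl and 18.6, 23.3 and 22.2 CPM in sgPrdx2 livers (log2 fold change -0.91, adjusted p = 0.0615 from edgeR). Serpina3f was at 14.0, 8.27 and 14.1 CPM in sgCtrl and 5.81, 6.03 and 6.57 CPM in sgPrdx2 livers (log2 fold change -0.98, adjusted p = 0.0554 from edgeR). The values of these genes were low beside those of Serpina3k, Serpina3m and Serpina3n, and Serpina3f, Serpina3g and Serpina3h each share 50-base stretches with Serpina3k or Serpina3n.

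The remaining 9 tested Serpina genes were not called by edgeR. Serpina11, which lies next to Serpina1e, was at 32.1, 34.0 and 29.8 CPM in sgCtrl and 55.6, 49.4 and 93.7 CPM in sgPrdx2 livers (log2 fold change 1.05, adjusted p = 0.0555 from edgeR). Serpina10, the protein Z-dependent inhibitor of factor Xa, and Serpina12, the adipokine vaspin, had log2 fold changes of 0.27 (adjusted p = 0.411) and 0.10 (adjusted p = 0.802) at levels of 301 to 501 and 62.1 to 103 CPM, by edgeR. Serpina3b, Serpina3c, Serpina5 (the protein C inhibitor), Serpina9 and the pseudogene Serpina4-ps1 reached at most 4.33 CPM in any liver, with log2 fold changes from -0.83 to 2.60 and adjusted p from 0.16 to 0.444 by edgeR. For Serpina3h the log2 fold change was -1.09 (edgeR, adjusted p = 0.106). Serpina1f and Serpina3a had 12 and 23 counts over the 6 livers, and Serpina3j and Serpina16 had 0.

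**Figure D3:**
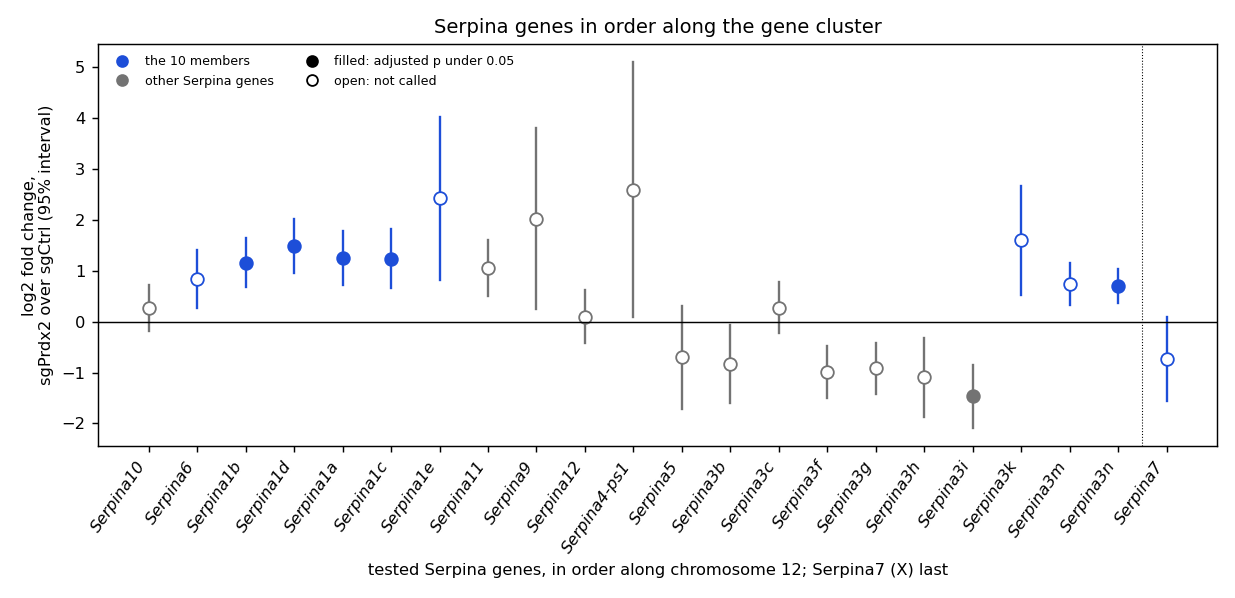
Log2 fold change (sgPrdx2 over sgCtrl) with its 95% interval for the 22 tested Serpina genes, in order along chromosome 12 with Serpina7 of the X chromosome last, members in blue and other genes in grey, filled where called. The 9 members on chromosome 12 lie above 0. Between them, Serpina3b, Serpina3f, Serpina3g, Serpina3h, Serpina3i and Serpina5 lie below 0, and of these only Serpina3i is filled.

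Plasma serpins of the liver that do not carry the Serpina symbol had higher values in sgPrdx2 livers without reaching the threshold. All 6 (angiotensinogen (Agt), which is itself a clade A serpin, Serpinc1, Serpind1, Serpinf1, Serpinf2 and Serping1) were higher in every sgPrdx2 liver, 0 of 6 were called by edgeR (5 at an unadjusted p under 0.05, 5 called by DESeq2), and their median log2 fold change was 0.66. Over all genes tested, 16.7% were higher without overlap, and DESeq2 called 7.63% of genes higher. Serpinc1, antithrombin, was at 1295, 1454 and 1494 CPM in sgCtrl and 2367, 2073 and 2275 CPM in sgPrdx2 livers (adjusted p = 0.0554). Serpind1, heparin cofactor II, was also at 0.63 on the log2 scale (adjusted p = 0.0555 from edgeR). Among 9 intracellular and tissue serpins, 0 were called higher and 2 lower by edgeR, as by DESeq2. Serpine2, which inhibits thrombin and urokinase at the cell surface, fell from 55.9, 55.9 and 53.0 to 31.8, 37.1 and 27.6 CPM (log2 fold change -0.77, adjusted p = 0.0396 from edgeR), and Serpinb6b fell by 0.88 on the log2 scale (adjusted p = 0.0486).

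Of 11 proteases that serpins act on, 7 passed the filter and 2 were called, both higher and both made by hepatocytes. The share called higher over all genes tested was 1.79%. Klkb1, plasma prekallikrein, was at 75.8, 97.0 and 76.4 CPM in sgCtrl and 184, 175 and 198 CPM in sgPrdx2 livers (log2 fold change 1.16, SE 0.15, adjusted p = 0.0313 from edgeR). F11, coagulation factor XI, had a log2 fold change of 1.17 (SE 0.18, adjusted p = 0.0358 from edgeR). Elane, neutrophil elastase and the main target of alpha-1-antitrypsin, was named after its values were seen and did not exceed 0.37 CPM in any liver. Its log2 fold change of 1.09 (adjusted p = 0.148 from edgeR) is also the median of the 7.

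Of 5 tested clearance receptors, which take up serpin complexes or other glycoproteins, Asgr2 was called higher (log2 fold change 0.99, adjusted p = 0.0409 from edgeR), and the median was 0.42. Of 15 genes for folding, export and quality control in the endoplasmic reticulum, through which every secreted serpin passes, 0 were called by edgeR (1 at an unadjusted p under 0.05, 1 called by DESeq2) and 13 overlapped between the groups, with a median log2 fold change of -0.02. The 2 of smallest p were Sar1b (0.48, adjusted p = 0.116) and Mcfd2 (-0.35, adjusted p = 0.231).

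Of 14 transcription factors of liver genes, 0 were called by edgeR, 6 had an unadjusted p under 0.05 and 3 were called by DESeq2. The 2 of smallest p were Nr1h4, the bile acid receptor FXR, at 0.59 on the log2 scale (adjusted p = 0.0668), and Cebpa at 0.67 (adjusted p = 0.0772). Of 10 tested genes of acute phase signalling, 0 were called by edgeR (5 at an unadjusted p under 0.05, 1 called by DESeq2) and the median log2 fold change was -0.33, with Osmr, the oncostatin M receptor, at -0.70 (adjusted p = 0.0587) and Osm, at 21 to 58 counts per liver, at -0.80 (adjusted p = 0.101). Without overlap, 5 of the 10 were lower and 2 were higher, beside 17.5% and 16.7% of all genes tested. The 2 higher ones, named after their values were seen, were Lifr (0.38) and Socs3 (0.71). Of 18 genes listed as acute phase proteins, 2 were called, both higher, beside 1.79% of all genes tested. These were Fgb, the fibrinogen beta chain (0.83, adjusted p = 0.0491 from edgeR), and Saa4 (1.07, adjusted p = 0.0491). Saa1, Saa2 and Saa3, named after their values were seen, overlapped between the groups and were not called (adjusted p = 0.217, 0.237 and 0.565 from edgeR). The median of the 18 was 0.59. DESeq2 called 6 of them higher and 1 lower, Lcn2 (lipocalin 2), named after its values were seen, which edgeR did not call (-0.73, adjusted p = 0.123).

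Of 14 genes of the glucocorticoid and thyroid hormone axis, the setting of the 2 carriers, 1 was called. Ttr, transthyretin, which carries thyroxine as Serpina7 does, rose from 3164, 4193 and 4164 to 9658, 7325 and 12479 CPM (log2 fold change 1.35, SE 0.24, adjusted p = 0.0394 from edgeR). Of 10 genes of the growth hormone axis, Igfals was called higher (1.27, SE 0.22, adjusted p = 0.0394 from edgeR) and the median log2 fold change was 0.77.

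**Figure D4:**
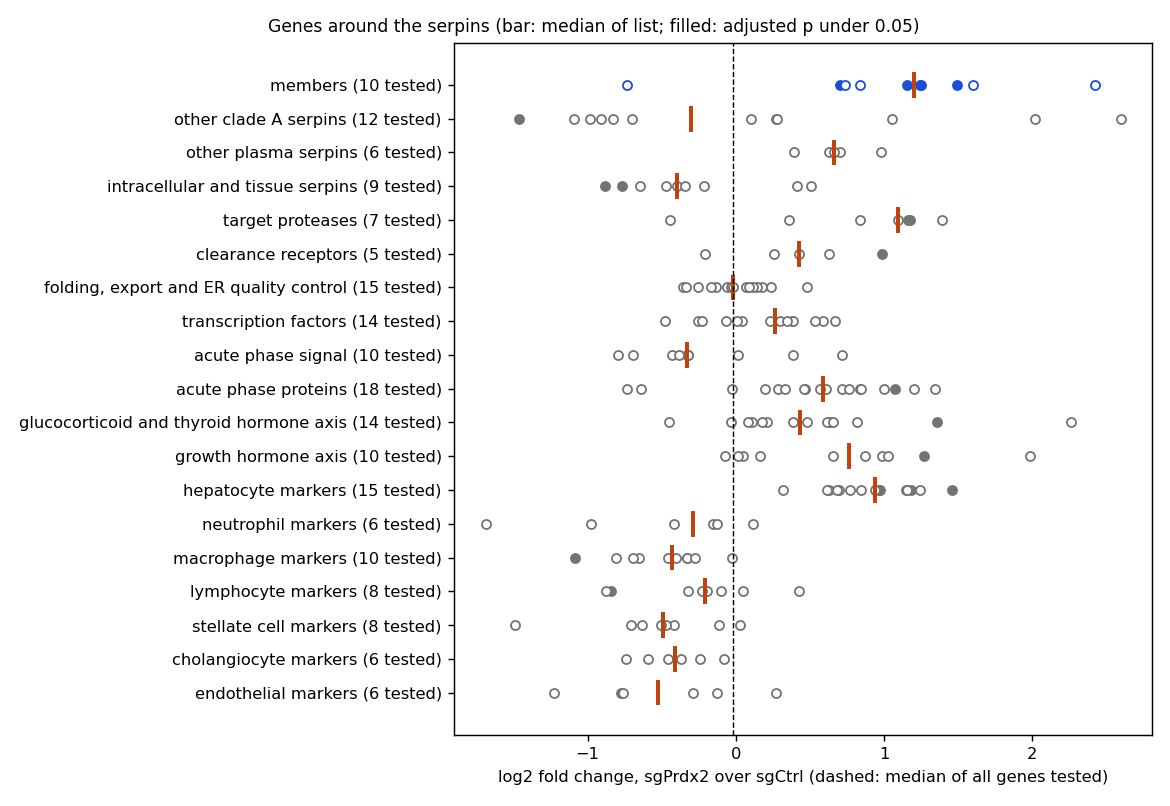
Log2 fold change (sgPrdx2 over sgCtrl) of each tested gene in the lists described in the text, with a bar at the median of each list and a dashed line at the median of all genes tested (-0.02). The members have a median of 1.20 and hepatocyte markers 0.94. Target proteases have 1.09, which is the value of Elane, a gene of at most 0.37 CPM in any liver. The lists of macrophage, lymphocyte, stellate, cholangiocyte and endothelial markers have medians below 0. Pancreatic acinar markers and housekeeping genes are not drawn.

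Markers of several cell types of the tissue differed between the groups. Of 15 tested hepatocyte markers, 5 were called, all higher (Apoh, Hpd, Apoa2, Apoa1 and Alb), 13 were higher without overlap, and the median log2 fold change was 0.94. The shares over all genes tested were 1.79% called higher and 16.7% higher without overlap. Apoh, the most significant, was at 902, 1044 and 951 CPM in sgCtrl and 1978, 1657 and 2050 CPM in sgPrdx2 livers (log2 fold change 0.97, adjusted p = 0.0358 from edgeR). Summed levels of the markers were 88126 to 95827 CPM in sgCtrl and 151791 to 204289 CPM in sgPrdx2 livers. With libraries scaled to the hepatocyte markers, the median log2 fold change of the members was 0.26, 6 of 10 were above 0, and the median of all genes was -0.97. The part of hepatocyte content in the difference of the serpins was not tested.

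Summed macrophage markers were at 3514 to 4017 CPM in sgCtrl and 2308 to 3248 CPM in sgPrdx2 livers, with 1 of 10 called, Gpnmb (log2 fold change -1.08, adjusted p = 0.0373 from edgeR). Summed lymphocyte markers were at 90.6 to 107 and 52.8 to 75.3 CPM, with 1 of 8 called lower, Cd8a (-0.84, adjusted p = 0.0486). Endothelial markers summed to 208 to 244 and 148 to 231 CPM, with 1 of 6 called lower, Pecam1 (-0.77, adjusted p = 0.0423). Stellate cell markers summed to 1971 to 2193 and 1408 to 1481 CPM and cholangiocyte markers to 1630 to 1858 and 1217 to 1393 CPM, with 0 of 8 and 0 of 6 called by edgeR, 5 and 3 at an unadjusted p under 0.05, and 2 and 1 called by DESeq2. The 2 of smallest p had log2 fold changes of -1.49 in Acta2 and -0.63 in Col3a1, and of -0.46 in Spp1 and -0.37 in Epcam. Most of the cholangiocyte sum was Spp1, at 1492 to 1707 CPM in sgCtrl and 1080 to 1258 CPM in sgPrdx2 livers. Krt19 (-0.59), Krt7 (-0.24) and Sox9 (-0.08), named after their values were seen, overlapped between the groups.

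Neutrophil markers summed to 23.1 to 30.8 and 20.1 to 23.9 CPM, with 0 of 6 tested called by edgeR or DESeq2. At an unadjusted p under 0.05 there were 3, among them Ltf (-1.68, at 1 to 17 counts per liver) and Csf3r (-0.42). The other 3, named after their values were seen, overlapped between the groups. These were S100a8 (-0.15), S100a9 (-0.13) and Retnlg (0.11). None of the markers of these types was at 0 in every liver. Pancreatic acinar markers reached at most 8.22 CPM in sum, with 1 of 5 tested (Cela2a, log2 fold change 0.88) and not called, and Amy2a2 at 0. The part of these cells in the values of Serpina3f, Serpina3g, Serpina3h and Serpina3i was not tested.

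How far above 0 the members lie depends on the scaling of the libraries. The median log2 fold change of the members was 1.20 with TMM, 0.82 with total counts, 0.80 with scaling to 6 housekeeping genes and 0.26 with scaling to hepatocyte markers. The median of all genes tested moved with it, from -0.02 to -0.39, -0.38 and -0.97. A change of scaling shifts every gene by about the same amount, so the position of the members relative to that median is set by construction and only their distance from 0 changes. The 6 housekeeping genes (Atp5b, Bag6, Cox8a, Hint1, Hnrnpa2b1 and Ndufa2) themselves had a median log2 fold change of 0.43 with TMM. Of these, 4 were higher without overlap, beside 16.7% of all genes. By edgeR 0 were called, and by DESeq2 3 were called higher, beside 7.63% of genes.

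**Figure D5:**
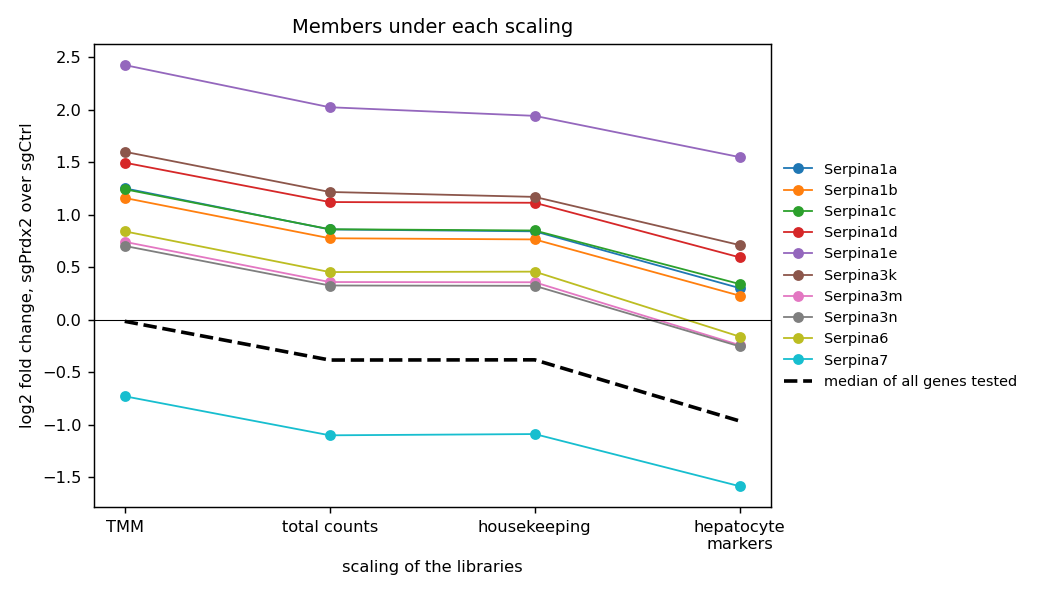
Log2 fold change of each member (sgPrdx2 over sgCtrl) under 4 scalings of the libraries, with the median of all genes tested as a dashed line. A scaling shifts all lines by about the same amount, and Serpina3m, Serpina3n and Serpina6 cross below 0 when libraries are scaled to hepatocyte markers.

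The number of calls depended on which livers were included. With any one of sgCtrl livers 5.1 or 7.2 or sgPrdx2 livers 1.1 or 1.3 left out, 0 members were called by edgeR, as was 0 of all genes. In these fits 9 or 10 members had an unadjusted p under 0.05. So did 3114 to 3993 of all genes, of which 17156 to 17429 were tested. Without sgPrdx2 liver 3.2, Serpina1a, Serpina1b and Serpina1d were still called, among 619 genes in all. Without sgCtrl liver 7.1, Serpina1d was still called together with Serpina1e and Serpina3k, which were not called with all 6 livers, among 394 genes in all.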

How the data were processed

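Whole-liver RNA of 3 sgCtrl and 3 sgPrdx2 mice was sequenced. The authors deposited whole-number counts of reads per gene for 52459 genes and 6 livers, not normalized. Their DESeq2 comparison (mean level, fold changes, p-values) was deposited too and was not used. The submitters' processing notes name HISAT2, HTSeq, DESeq2 and GRCm38 without roles. The annotation, strandedness and the treatment of reads shared between genes are not given in the sources used here. Whether the animals shared a litter or a sequencing run is not stated.

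The counts were fitted with edgeR 4.0.16 under R 4.3.3 (filterByExpr with a minimum count of 10, TMM, glmQLFit and glmQLFTest, all 6 livers, no covariate). P-values were Benjamini-Hochberg adjusted over all 17032 genes tested and called under 0.05. Standard errors were taken as log2 fold change over the root of the F statistic, and 95% intervals use the t quantile of the fit. The fit was tested on simulated data. Single values were compared by two-sided exact permutation tests. Precision is limited by the 3 livers per group rather than by depth, which was 37462102 to 56865293 counts per liver.

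Positions, exon lengths and coding sequences come from GENCODE M21 (GRCm38) and promoters from RefSeq (GRCm38.p6), with the most upstream entry used for the 1 member with several. Coding sequences were aligned with MAFFT 7.526. The members and gene lists were chosen with earlier results of these data known. The rule for named genes takes the 10 members, the other clade A serpins with a Serpina symbol, Prdx2 and Alb, and in each other list up to 3 called genes of smallest p or, with none called, the 2 of smallest p. Symbol Tf of the hepatocyte list matched no row. Alternatives were RLE and upper quartile normalization, total counts, scaling to housekeeping genes or hepatocyte markers, DESeq2 1.42.0, dropping the filter, requiring 10 counts per gene in each liver, thresholds of 0.01 and 0.1, and leaving out each liver.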

Additional observations from a re-analysis of the deposited data

How the results depend on the processing

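The number of members called was 5 (567 of all 17032 genes called). It was also 5 with RLE (568 called), upper quartile (566 called) or at least 10 counts in every liver (614 of 15663 called). With total counts it was 4 (3247 of 17032 called), with scaling to hepatocyte markers 4 (12465 called) and with scaling to housekeeping genes 3 (989 called). DESeq2 gave 7 (2052 of 15276 called) and no filter on low counts gave 8 (1128 of 28631 called). At an adjusted p under 0.01 the number was 0 and under 0.1 it was 9, without a count over all genes here. It was 0 to 3 when each liver was left out in turn. With total counts the lost call was Serpina3n, and with housekeeping scaling Serpina3n and Serpina1c. With hepatocyte scaling only Serpina1d kept its call, Serpina1e and Serpina3k were called higher and Serpina7 lower. The summed Serpina1a-e counts had a log2 fold change of 1.29, which was not called with scaling to hepatocyte markers (0.36, adjusted p = 0.119) or at a threshold of 0.01 (1.29). Leaving out each liver in turn gave 1.09 to 1.42 with adjusted p of 0.0466 to 0.147, and it was called in 1 of these 6 fits, without sgPrdx2 liver 3.2. The median of the members was 0.82 with total counts, 0.80 with scaling to housekeeping genes and 0.26 with scaling to hepatocyte markers, and 0.98 to 1.32 when each liver was left out. With scaling to hepatocyte markers the log2 fold changes of Serpina3m (-0.24), Serpina3n (-0.26) and Serpina6 (-0.16) changed sign, and Serpina7 was at -1.59 (adjusted p = 1.71e-05). The number of Serpina1 shares without overlap was 1, and 1 to 3 when each liver was left out. Of 140 single-member values under the alternatives, 3 changed sign, 33 lost a call (Serpina3n with hepatocyte scaling did both) and 10 gained one. The causes were not tested. No paired analysis was possible because the groups share no replicate number.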
